A study of Homo sapiens with 2 samples.

Results

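The genes described here encode the proteins that act at replication origins, replication forks and DNA polymerases, with the MCM helicase family left out. They were taken by gene symbol from a list of 49 names, and all 49 had a probe set annotated to that symbol alone, out of 18417 genes so named on the arrays. H1299 is an established human line from a non-small cell lung carcinoma, without p53, the transcription factor that arrests the cell cycle after DNA damage. One group was H1299 cells whose treatment label is p53 and the other was H1299 cells labelled negative control, and the series asks about p53 and 5hmC in gene regulation. The sources used here do not give the way p53 was supplied, the time of harvest or what the control cells received. Each group is 1 Affymetrix array of total RNA. There are no replicates, so the differences carry neither a p-value nor an error between cultures and describe these 2 arrays only. Values are log2 intensities, and a difference is the p53 value minus the negative control value, so that -1 stands for a 2-fold lower level. In counts of genes, lower and higher mean a difference of at least 2-fold, which is a rule of size.

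The p53 targets CDKN1A (12.66 with p53 against 9.18 in the control) and MDM2 (13.59 against 10.87) were higher in the array labelled p53. Of 6 epithelial markers, 3 reached 7.38, the median of all probe sets. KRT8 (12.84 and 12.52) and KRT18 (12.47 and 12.78) were bright in both arrays, and KRT7 (7.72 and 7.80) lay little above the median. KRT19, EPCAM and CDH1 lay below it and were equal in both arrays. Of 6 lung lineage, 6 haematopoietic and 8 fibroblast and endothelial markers, 1 of each list reached that median in either array. These were the lung marker SCGB1A1 (8.53 with p53 and 7.09 in the control, 2.71-fold higher), the myeloid marker ITGAM (8.46 and 7.68) and COL1A1 (equal in both), named after their values were seen. The part of these 3 markers in later results was not tested. None of the 49 replication genes had exactly the same value in both arrays. Over all 18417 genes, 35.3% did, as did 15.1% of those with a mean at or above 7.38. No source used here gives the step that made them equal, and a tie may not be a measured equality.

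Replication starts in 2 steps that the cell cycle keeps apart. In G1, the origin recognition complex (ORC), CDC6 and CDT1 load MCM helicases onto origins. In S phase, the kinase CDC7 with DBF4 and a set of firing factors attach CDC45 and the GINS complex to the helicase, which then unwinds the DNA ahead of the polymerases. Many of these genes are transcribed from late G1 under E2F factors, and p53 is known to lower their transcripts through p21 and the retinoblastoma family.

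Most of the 49 genes were lower with p53. At least 2-fold lower were 30 (61.2%), 1 was at least 2-fold higher and 18 passed neither limit. Their median difference was -1.27, a 2.42-fold lower level. The median over all genes was 0.00. Of all genes, 3.7% were at least 2-fold lower and 5.22% at least 2-fold higher. Of the 11103 genes whose mean over the 2 arrays was at or above 7.38, the shares were 5.67% and 7.7%. Counted by sign alone, 45 of the 49 were lower with p53 by any amount, against 37.8% of all genes and 50.7% of those at or above 7.38. The genes with equal values hold these shares down, and of the 11913 genes whose values differed, 58.4% were lower. The differences of the middle of the list, from its 25th to its 75th percentile, ran from -1.54 to -0.55, while those of all genes ran from -0.18 to 0.02 and those of genes whose values differed from -0.38 to 0.21.

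**Figure D1:**
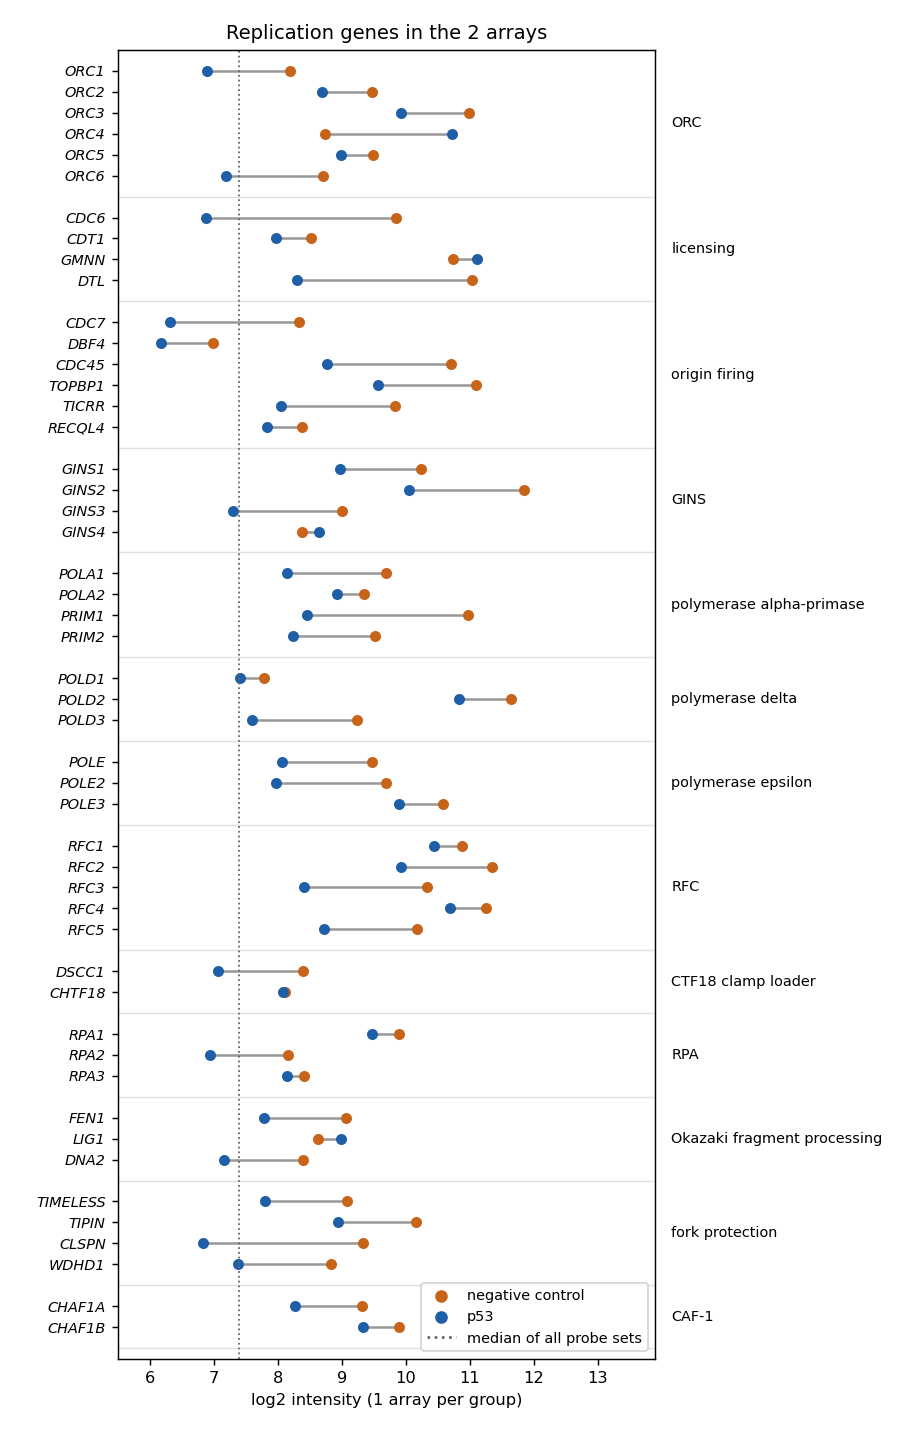
Log2 intensity (horizontal axis) of each of the 49 genes in the negative control array (orange) and the p53 array (blue), grouped by subcomplex, with a grey line joining the 2 values of a gene and a dotted line at 7.38, the median of all probe sets. The blue point lies left of the orange one in 45 genes, and ORC4, GMNN, LIG1 and GINS4 are the exceptions.

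At least 4-fold lower were 5 of the 49 (CDC6, DTL, CLSPN, PRIM1 and CDC7), against 0.462% of all genes and 0.748% of those at or above 7.38. They belong to 4 different steps, namely licensing, firing, priming and fork protection. In 11 genes the p53 value lay below 7.38 (ORC1, ORC6, CDC6, CDC7, DBF4, GINS3, DSCC1, RPA2, DNA2, CLSPN and WDHD1), so the size of their differences rests on a dim signal. DBF4 alone was also below it in the control. In bulk RNA, fewer cells in S phase and less of a transcript per cell cannot be told apart.

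The 6 subunits of ORC, the ring that marks origins and takes part in loading the helicase, differed in direction. ORC1, the largest subunit and an ATPase, was 6.89 with p53 and 8.19 in the control (2.45-fold lower). ORC6, the smallest subunit, was 7.19 and 8.70 (2.86-fold lower). ORC3 was 9.93 and 10.99, 2.09-fold lower and just inside the 2-fold limit. With a lowess trend on intensity removed, its difference was -0.96, which is outside it. ORC2 (8.68 and 9.47, a difference of -0.79) and ORC5 (8.99 and 9.48, -0.49) were lower by less than 2-fold. ORC4, another AAA+ family subunit, stood apart from all the others, at 10.73 with p53 and 8.73 in the control. It was 3.98-fold higher, the 256th highest difference of all 18417 genes and the only one of the 49 to be 2-fold higher. The distance from ORC6 to ORC4, 3.51 on the log2 scale, was the widest within any subcomplex here. ORC4 was read by a single probe set, so no second measurement on these arrays bears on it.

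Promoters of ORC4, of the lowest members at or above 7.38 on average and of CHTF18 are shown beside their values. They come from RefSeq on GRCh38.p14 and run from 250 bases before to 30 bases after the gene start. Capitals mark words of the kind that E2F factors bind (TTTCCCGC, TTTGGCGC, TTTCGCGC, TTTGGCGG or TTTCCCGG, on either strand). ORC4 has 2 such windows, the first at chr2:148021522-148021801 on the minus strand and the second at chr2:148020708-148020987 on the minus strand. Neither holds one of these words in the 300 bases searched.
ORC4 window 1: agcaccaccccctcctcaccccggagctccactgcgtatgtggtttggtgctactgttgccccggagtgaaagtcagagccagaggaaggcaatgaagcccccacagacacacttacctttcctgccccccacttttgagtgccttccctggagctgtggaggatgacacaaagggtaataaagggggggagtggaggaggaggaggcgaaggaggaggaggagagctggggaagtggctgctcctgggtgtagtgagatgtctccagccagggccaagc
ORC4 window 2: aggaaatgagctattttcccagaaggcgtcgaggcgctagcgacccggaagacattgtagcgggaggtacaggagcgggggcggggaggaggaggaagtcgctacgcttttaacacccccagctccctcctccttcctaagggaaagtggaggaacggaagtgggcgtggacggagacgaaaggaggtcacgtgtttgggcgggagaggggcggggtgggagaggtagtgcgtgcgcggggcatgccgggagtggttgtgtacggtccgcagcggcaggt

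The licensing group, which includes genes that act against licensing, showed the largest differences of the 49 and also 1 of the 4 positive ones. CDC6, the ATPase that joins ORC to load the helicase, was 6.87 with p53 and 9.84 in the control. That is 7.88-fold lower, the second lowest difference of all 18417 genes. DTL, the receptor by which the CRL4 ubiquitin ligase destroys CDT1 during S phase, was 8.29 against 11.04 (6.70-fold lower), the seventh lowest. CDT1, which brings the helicase to origins and is a target of DTL, was 7.97 against 8.51, a difference of -0.54. Geminin (GMNN), the inhibitor of CDT1, was 11.11 against 10.74, 0.38 above the control. The inhibitor and its target thus differed in opposite directions in these 2 arrays, both by less than 2-fold, while CDC6 and DTL were more than 6-fold lower. The scaled median absolute deviation of the differences of genes at or above 7.38 was 0.42. With 1 array per group, the sign of differences as small as that of GMNN, LIG1 or GINS4 is uncertain.

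The windows of CDC6 (chr17:40287629-40287908 on the plus strand) and DTL (chr1:212035498-212035777 on the plus strand) are shown as those of the 2 lowest members. Each holds 2 of the E2F words, and in each a word begins within 10 bases of the gene start.
CDC6: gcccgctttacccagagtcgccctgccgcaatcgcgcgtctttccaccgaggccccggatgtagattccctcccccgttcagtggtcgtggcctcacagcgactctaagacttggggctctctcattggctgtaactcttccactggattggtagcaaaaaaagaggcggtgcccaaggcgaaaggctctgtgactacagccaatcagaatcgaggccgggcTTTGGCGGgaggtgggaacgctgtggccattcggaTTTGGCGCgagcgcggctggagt
DTL: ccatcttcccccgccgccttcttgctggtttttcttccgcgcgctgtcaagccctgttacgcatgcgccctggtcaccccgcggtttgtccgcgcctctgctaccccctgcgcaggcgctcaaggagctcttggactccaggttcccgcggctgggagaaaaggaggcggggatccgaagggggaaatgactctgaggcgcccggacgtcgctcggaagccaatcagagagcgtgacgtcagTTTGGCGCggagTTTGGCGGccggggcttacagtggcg

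Of the 6 genes that fire licensed origins, 4 were at least 2-fold lower and all 6 were below the control. CDC7, the kinase that phosphorylates the MCM ring, was 6.30 with p53 and 8.33 in the control (4.07-fold lower). Its activating subunit DBF4 was dim in both arrays, at 6.17 and 6.98, with a difference of -0.80. CDC45, which joins MCM and GINS in the active helicase, was 8.76 against 10.71 (3.87-fold lower). TICRR (treslin), which with TOPBP1 helps to load CDC45, was 8.04 against 9.83 (3.45-fold lower), and TOPBP1 was 9.57 against 11.10 (2.90-fold lower). RECQL4, a helicase of the RecQ family needed for firing, was 7.82 against 8.38, lower by less than 2-fold. The median of the 6 was -1.66. That of the licensing group, -1.64, fell in the wide gap between DTL (-2.75) and CDT1 (-0.54), so it is near no gene of that group.

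Among the 4 subunits of GINS, which forms the CMG helicase with CDC45 and the MCM ring, 3 were lower and GINS4 was not. GINS2 was 10.05 with p53 and 11.85 in the control (3.46-fold lower), GINS3 was 7.29 and 9.01 (3.28-fold lower), and GINS1 was 8.96 and 10.24 (2.42-fold lower). GINS4 was 8.63 against 8.37, 0.27 above the control. The differences of GINS2 and GINS4 lay 2.06 apart on the log2 scale.

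One promoter window of CDC45, of 3 listed, lies at chr22:19479670-19479949 on the plus strand and is shown as that of the lowest firing gene at or above 7.38 on average. It holds 1 E2F word and 4 CCAAT words, the letters bound by the factor NF-Y.
CDC45: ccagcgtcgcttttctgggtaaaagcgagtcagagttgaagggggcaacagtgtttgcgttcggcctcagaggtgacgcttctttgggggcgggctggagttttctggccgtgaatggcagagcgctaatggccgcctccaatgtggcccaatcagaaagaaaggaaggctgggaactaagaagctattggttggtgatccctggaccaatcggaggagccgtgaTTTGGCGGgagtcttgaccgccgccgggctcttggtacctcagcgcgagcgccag

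Of the 10 polymerase and primase genes among the 49, 6 were at least 2-fold lower, and their median was -1.34. The small subunits POLD4 (9.23 with p53 and 9.22 in the control) and POLE4 (9.21 and 9.53), which are not among the 49, were neither 2-fold lower nor higher. Polymerase alpha with primase lays down the RNA-DNA primer of every new strand. Its small primase subunit PRIM1, which makes the RNA, was 8.46 with p53 and 10.97 in the control (5.69-fold lower). The large primase subunit PRIM2 was 8.24 and 9.52 (2.42-fold lower) and the catalytic subunit POLA1 8.14 and 9.68 (2.92-fold lower). The accessory subunit POLA2 was 8.92 and 9.34, a difference of -0.43.

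PRIM1 is shown as the lowest polymerase gene, at chr12:56752294-56752573 on the minus strand. Its window holds no E2F word among the letters searched and 1 CCAAT word.
PRIM1: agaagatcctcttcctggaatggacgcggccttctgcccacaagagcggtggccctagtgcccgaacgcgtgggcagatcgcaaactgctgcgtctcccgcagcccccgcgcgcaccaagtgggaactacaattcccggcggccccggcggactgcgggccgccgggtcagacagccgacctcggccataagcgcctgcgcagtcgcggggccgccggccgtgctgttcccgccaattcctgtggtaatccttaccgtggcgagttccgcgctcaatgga

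Polymerase epsilon, which copies the leading strand, was lower in its catalytic subunit POLE (8.06 against 9.46, 2.64-fold) and in POLE2 (7.96 against 9.68, 3.30-fold). The histone-fold subunit POLE3 was 9.89 against 10.58, a difference of -0.69. In polymerase delta, which copies the lagging strand, only the accessory subunit POLD3 was 2-fold lower (7.59 against 9.24, 3.14-fold). Its catalytic subunit POLD1 was 7.40 against 7.79, near the median of all probe sets, with a difference of -0.39, and POLD2 was 10.84 against 11.65 with a difference of -0.81. The medians of the alpha-primase and epsilon genes were -1.41 and -1.40, and that of the delta genes was -0.81. The 3 or 4 subunits behind each median do not allow a comparison between the polymerases.

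**Figure D2:**
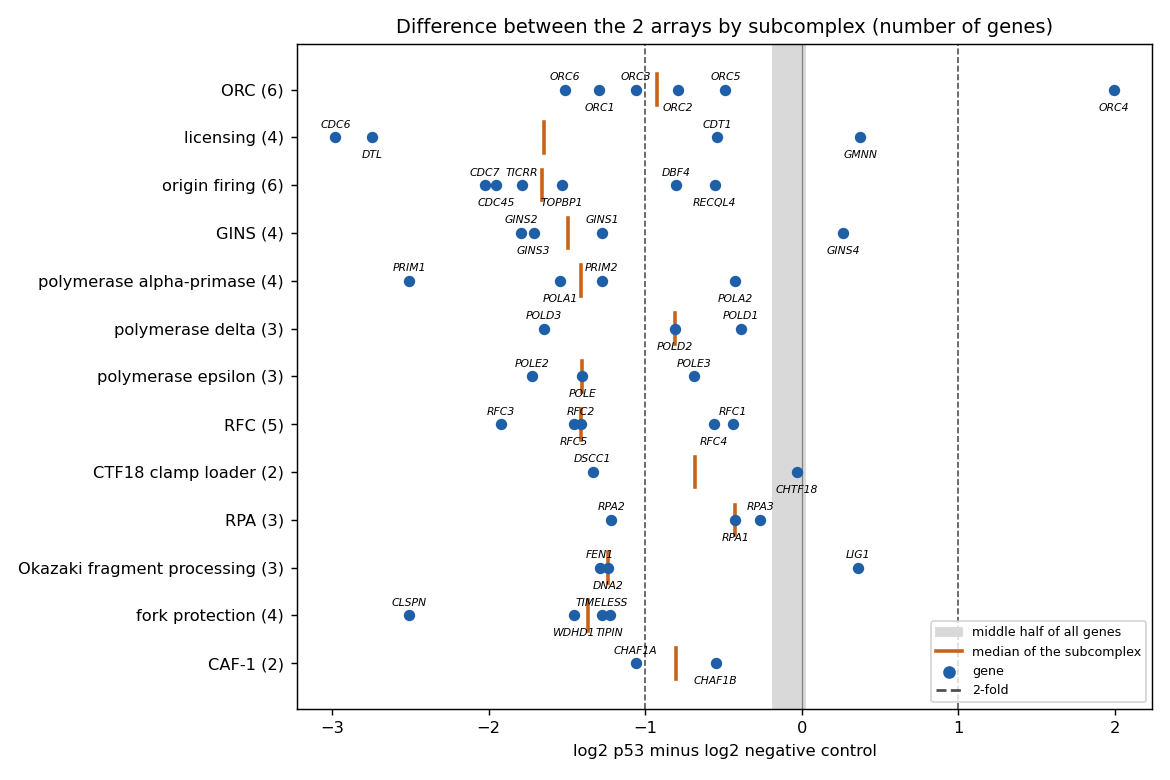
Difference in log2 intensity, p53 minus negative control (horizontal axis), of each gene (blue points) by subcomplex, with the number of genes in brackets. Orange bars are subcomplex medians, dashed lines mark 2-fold and the grey band runs from the 25th to the 75th percentile of all genes (-0.18 to 0.02). All 13 medians lie below 0, and ORC4 lies alone at 1.99.

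Replication factor C (RFC) is the ring that opens the PCNA clamp and sets it on DNA. RFC3 was 8.41 with p53 and 10.33 in the control (3.79-fold lower), RFC5 was 8.72 and 10.17 (2.74-fold lower) and RFC2 was 9.93 and 11.34 (2.66-fold lower). RFC4 (10.70 and 11.26, -0.56) and the large subunit RFC1 (10.44 and 10.88, -0.44) were lower by less than 2-fold. RFC1 gives way to CHTF18 in the alternative loader that also holds DSCC1. DSCC1 was 7.06 against 8.39 (2.52-fold lower), but CHTF18 was 8.08 against 8.11. Its difference of -0.03 was the smallest of the 49. CHTF8, the remaining subunit of that loader and not among the 49, was 9.67 against 10.23, a difference of -0.56.

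RFC3 (chr13:33817899-33818178 on the plus strand) and CHTF18 (chr16:788370-788649 on the plus strand) are shown as the loader genes with the largest and the smallest difference. The RFC3 window holds 1 E2F word and no CCAAT word, and the CHTF18 window holds no E2F word and 3 CCAAT words. Their G and C content also differs, at 53% and 82.7% of the 300 bases.
RFC3: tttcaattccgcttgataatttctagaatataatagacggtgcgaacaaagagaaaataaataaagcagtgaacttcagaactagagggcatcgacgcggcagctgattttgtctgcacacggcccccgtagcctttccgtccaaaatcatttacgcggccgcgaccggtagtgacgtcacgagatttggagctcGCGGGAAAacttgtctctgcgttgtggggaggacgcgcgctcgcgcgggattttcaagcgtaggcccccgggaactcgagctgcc
CHTF18: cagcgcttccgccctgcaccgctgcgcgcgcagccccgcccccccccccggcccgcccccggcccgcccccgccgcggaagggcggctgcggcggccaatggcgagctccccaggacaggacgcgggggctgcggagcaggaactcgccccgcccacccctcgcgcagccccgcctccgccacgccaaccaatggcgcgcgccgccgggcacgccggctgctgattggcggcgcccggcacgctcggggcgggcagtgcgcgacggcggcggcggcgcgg

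Replication protein A (RPA), which coats single-stranded DNA in replication and repair, had the median nearest to 0 among the subcomplexes, at -0.42. RPA2, the subunit phosphorylated in the damage response, was 6.94 with p53 and 8.16 in the control (2.32-fold lower). RPA1, the large DNA-binding subunit, was 9.48 and 9.90 (-0.42), and RPA3, the smallest, was 8.14 and 8.41 (-0.26).

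Genes that finish the lagging strand were divided. The flap nuclease gene FEN1 was 7.78 with p53 and 9.07 in the control (2.45-fold lower), and DNA2, a nuclease and helicase for long flaps, was 7.16 and 8.40 (2.35-fold lower). LIG1, the ligase that seals Okazaki fragments, was 8.98 and 8.62, 0.36 above the control.

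Fork protection was the only one of the 13 subcomplexes in which every gene was at least 2-fold lower, with TIMELESS (-1.27) and TIPIN (-1.23) nearest to that limit. Claspin (CLSPN), the mediator that lets ATR activate CHEK1 at stalled forks, was 6.82 with p53 and 9.33 in the control (5.69-fold lower). A second CLSPN probe set, the only second one among the 49 genes, was 6.44 and 8.63 (4.54-fold lower). TIMELESS was 7.80 and 9.07 (2.42-fold lower), and TIPIN, its partner in the complex that couples helicase and polymerase, was 8.93 and 10.16 (2.34-fold lower). WDHD1 (AND-1), which tethers polymerase alpha to the helicase, was 7.37 and 8.83 (2.74-fold lower).

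The CLSPN window, at chr1:35769949-35770228 on the minus strand, is shown as that of the lowest fork protection gene. It holds 1 E2F word, which begins 5 bases before the gene start, and 3 CCAAT words.
CLSPN: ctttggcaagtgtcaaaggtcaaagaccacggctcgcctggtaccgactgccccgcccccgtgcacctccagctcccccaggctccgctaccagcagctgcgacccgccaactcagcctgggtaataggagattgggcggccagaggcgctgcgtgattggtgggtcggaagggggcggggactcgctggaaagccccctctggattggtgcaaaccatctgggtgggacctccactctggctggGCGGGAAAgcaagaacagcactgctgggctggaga

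Chromatin assembly factor 1 (CAF-1) places histones H3 and H4 on new DNA behind the fork. CHAF1A, its large subunit that binds PCNA, was 8.26 with p53 and 9.32 in the control (2.08-fold lower), and its difference was -0.99 with the lowess trend removed. CHAF1B was 9.33 and 9.88, a difference of -0.55.

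Among 10 MCM genes the median was -1.65, and 7 were at least 2-fold lower and 0 higher, led by MCM3 (-2.33), MCM10 (-2.32), MCM6 (-2.09) and MCM7 (-1.81), while MCM9 was equal in both arrays. A list of further replication genes, 49 of them measured, had a median of -0.61, with 15 at least 2-fold lower, 0 higher and 34 neither. With the lowess trend removed, 10 of them were at least 2-fold lower. By sign, 39 were below 0, 3 were equal in both arrays and 7 were above 0. Their largest differences were those of CCNE2, a cyclin of S phase entry (-2.67), the cohesion genes ESCO2 (-2.33) and CDCA5 (-2.25), and the nuclease gene EXO1 (-2.18). PCNA, the clamp that RFC loads and a known p53 target, was 11.22 with p53 and 10.51 in the control, 0.71 above it. It was named after its value was seen. All 16 genes of a G2/M list were at least 2-fold lower, with a median of -2.09. Their part in the differences of the replication genes was not tested. Of 16 ribosomal protein genes, none was 2-fold lower or higher, and they ran from -0.16 to 0.25.

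**Figure D3:**
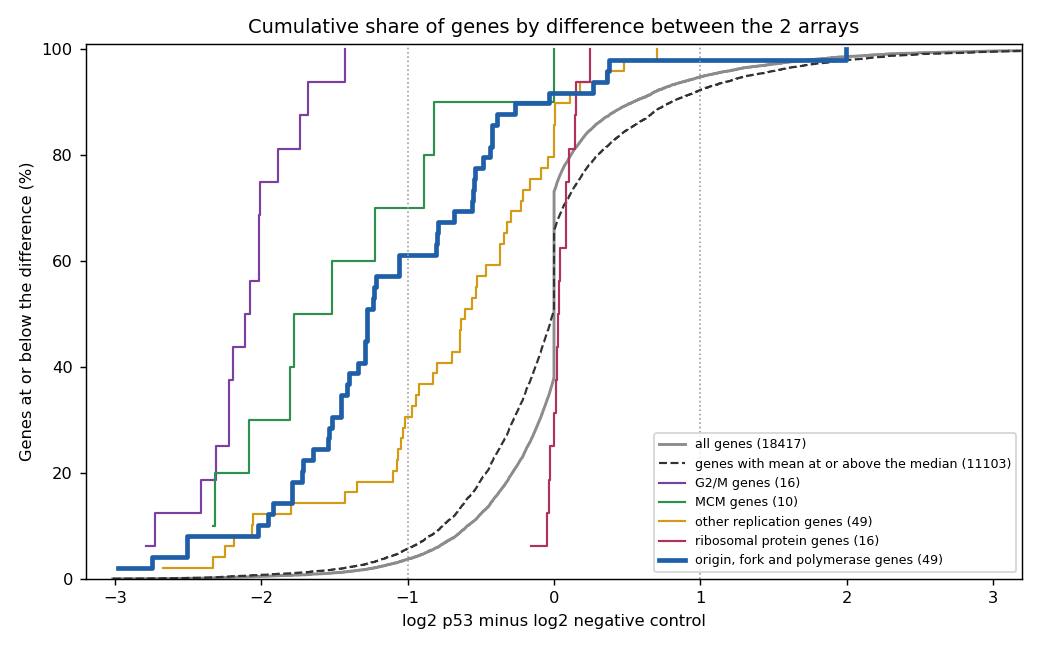
Percentage of genes (vertical axis) at or below each difference in log2 intensity, p53 minus negative control (horizontal axis), for the 49 replication genes, 4 other lists, all genes and genes with a mean at or above 7.38. The curve of the 49 genes (thick blue) lies left of both background curves until close to its last gene, ORC4, and between those of the MCM genes and the other replication genes over most of its length.

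Of the 49 genes, 42 matched a RefSeq promoter window of 300 bases, 250 before and 50 after the gene start, and the first window listed was used where a gene had several. The 7 without a window were RECQL4, GINS4, POLD3, DSCC1, RPA2, RPA3 and DNA2, and they do not enter the counts of words. Among them, POLD3, DSCC1, RPA2 and DNA2 were at least 2-fold lower and the others were not. An E2F word was present in 19 of the 42 (45.2%), against 4.82% of 27305 genes with a window and 8.34% of 8958 measured genes at or above 7.38. A match describes letters and does not show that a factor binds. Of the 24 E2F words, 19 began no more than 60 bases before the gene start, in 15 genes. The word TTTGGCGG was found in 8 genes, TTTCCCGC in 7, TTTGGCGC in 6, TTTCGCGC in 2 and TTTCCCGG in 1. A CCAAT word, on either strand, was present in 22 of the 42 (52.4%), against 35.7% of all genes with a window and 36.6% of the measured genes at or above 7.38. Both kinds stood together in 12 (28.6%), against 1.85% of all genes with a window and 3.40% of the measured genes at or above 7.38. The CHR words TTTGAA and TTCGAA, which are found at genes of G2 and M phase, were present in 1 of the 42, DBF4, against 16.6% of all genes with a window and 10.8% of the measured genes at or above 7.38. No E2F word overlapped a CHR or CCAAT word in these windows.

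Within the 42, the 19 genes with an E2F word had a median difference of -1.54 and the 23 without one a median of -0.81. Of the 19, 15 were at least 2-fold lower, as were 11 of the 23. For the CCAAT word the medians were -1.35 in the 22 genes with it and -0.74 in the 20 without it, and 17 and 9 of them were at least 2-fold lower. Of the 12 genes that held both, 11 were at least 2-fold lower, so the splits share genes. The part of either word in the differences was not tested. The 4 genes that held an E2F word and were not 2-fold lower were CDT1, RFC1, POLA2 and LIG1. PRIM1 and CDC7, both over 4-fold lower, held none of the E2F words searched. The median G and C content of the windows was 64.8% for the 42 genes, 58.3% for all genes with a window and 66.0% for the measured genes at or above 7.38.

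**Figure D4:**
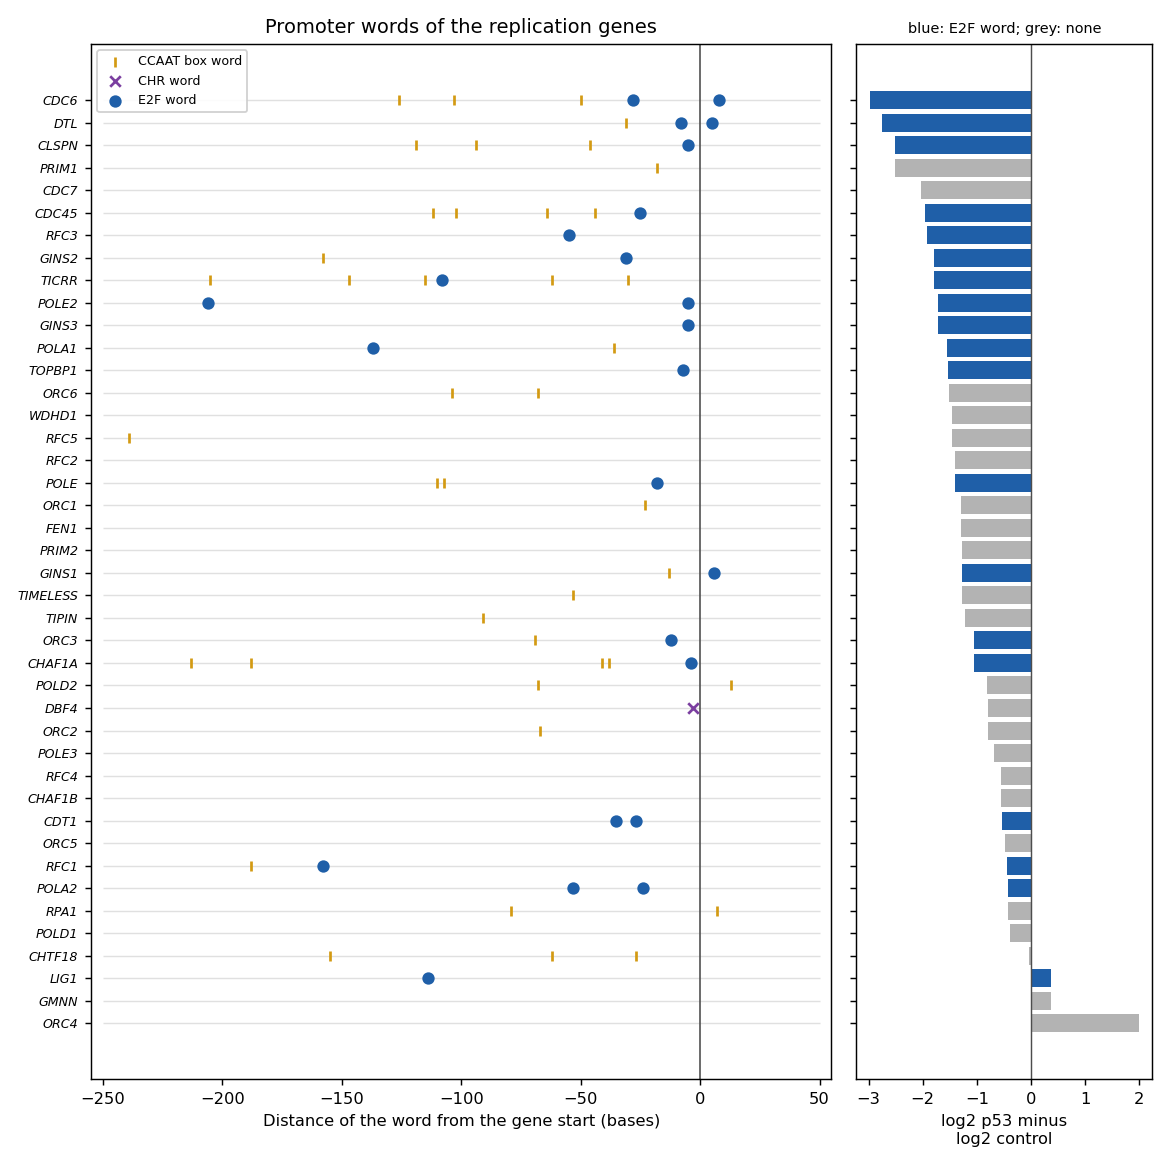
Left, position of E2F words (blue points), CCAAT words (yellow bars) and CHR words (purple crosses) in bases from the gene start in the promoter windows of 42 replication genes, ordered from the lowest difference at the top. Right, difference in log2 intensity, p53 minus negative control, as bars from 0, blue for genes with an E2F word and grey for genes without; 15 of the 19 blue bars reach -1 or below.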

How the data were processed

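The authors deposited a log2 intensity for each probe set of each array, made with RMA (robust multi-array average) according to the submitters' processing notes. That the scale is log2 was read from the range, which reaches 14.68 in both arrays. The 2 columns have nearly equal distributions (a median gap of 0.0096 between sorted values), so a change in total RNA per cell cannot be read from them. The genome build, the software and the definition of probe sets were not given in the sources used here.

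Of 33297 probe sets, 19460 had 1 gene symbol in GEO's platform annotation, updated through the gene identifier. The others, with several symbols or without any, were not used. Of a gene with several, the probe set with the highest mean was used. No filter was applied. The members, gene lists and motifs were chosen with earlier results of these data known. All members are named. Other pathway genes are named as the 4 largest differences of a list; cell type markers, other subunits of the same complexes and genes marked in the text were named after their values were seen. Promoters were printed for the 6 lowest members at or above 7.38 on average, those of the 2 nearest to 0 (CHTF18 and RPA3) where a window was found, and the highest member, the last added after its value was seen. Scripts were tested on simulated data. Python 3.11.15, numpy 2.4.6, pandas 2.3.3, statsmodels 0.14.6 and matplotlib 3.10.9 were used.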

Additional observations from a re-analysis of the deposited data

How the results depend on the processing

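The alternatives were filters on the mean of the 2 arrays, averaging a gene's probe sets, admission of probe sets with several symbols, centring on the median, removal of a lowess trend, quantile normalization, an offset of 32 on the linear scale, and thresholds of 1.5-fold and 3-fold. Probe sets with several symbols were admitted only for members without a probe set of their own. All 49 had one, so this setting could not change any result. A threshold of 4-fold and the use of all promoter windows were chosen after seeing the data. A median counted as moved from a shift of 0.14 on, the spread between probe sets of a gene. With the filter at the 75th percentile (9.01), which kept 22 of the 49 genes, 11 were at least 2-fold lower, 20 were below 0 and the median was -0.94. A gene could pass with only 1 array above 9.01, as PRIM1 (8.46 with p53 and 10.97 in the control) and ORC4 (10.73 and 8.73) did. The filter is thus not independent of the differences, and the share of all genes lower under it was not counted. The medians then became -0.64 for ORC, -1.18 for licensing, -0.69 for polymerase epsilon and -0.55 for CAF-1, as fewer genes entered. With the offset of 32, the median of the Okazaki fragment genes was -1.07. By the same limit of 0.14, 12 of the 49 single differences moved with the offset. CDC7, just past 4-fold in the main setting, was then at -1.67, less than 4-fold lower. By construction, the threshold of 3-fold left 12 genes lower and that of 4-fold left 5 lower and 0 higher. At 4-fold, 0.462% of all genes were lower. The shares of all genes at 1.5-fold and at 3-fold were not counted, so the counts at these thresholds have no background beside them. ORC3 was at -0.96 and CHAF1A at -0.99 with the lowess trend removed, both less than 2-fold, and CHAF1A was also less than 2-fold with the offset. No other member crossed the 2-fold limit, and CHTF18 was the 1 member to change sign, to 0.0048 with the lowess trend removed. Of the 49 further replication genes, 15 of which were at least 2-fold lower, 10 were so with the lowess trend removed, 11 with the offset and 7 after the stricter filter of 9.01, and 25 were lower and 1 higher at 1.5-fold. With all windows, in which a gene can count more than once, 43.4% of 53 windows held an E2F word, against 4.77% of 35116 windows of all genes. No paired analysis was possible because each group has 1 array. Precision is limited by the number of arrays, 1 per group.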

Other observations

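Several pairs of related replication genes outside the 49 had unlike differences; they were picked after their values were seen. The histone chaperone gene ASF1B was at 8.50 with p53 and 10.55 in the control (-2.06), while its paralogue ASF1A was 0.35 above the control. The topoisomerase gene TOP2A had a difference of -2.07, while TOP2B had equal values in the 2 arrays, a tie that may not be a measured equality. CCNE2 was at -2.67 and CCNE1 at -1.35. In the CRL4 ligase that DTL directs, DDB1 was 0.48 above the control, CUL4A was at -0.37 and CUL4B at -0.61. Of the 5282 genes with a mean at or above 9.01, 5.57% had the same value in both arrays to the last decimal given.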
